A study of Mus musculus with 4 samples.

Results

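The cells described here are 692 single cells of day 4 mouse gastruloids with *Twist1* RNA together with *Hand2* or *Prrx2* RNA, and little *Krt18* or *Mesp1* RNA. A cell was selected when it held 3 or more unique molecular identifiers (UMIs, each standing for 1 captured RNA molecule) of *Twist1*, 2 or more of *Hand2* plus *Prrx2*, under 5 of *Krt18* and under 3 of *Mesp1*. The 692 cells are 9.61% (95% Clopper-Pearson interval 8.94 to 10.3) of the 7202 day 4 cells with 2000 or more UMIs and a mitochondrial share under 20%. The matrix of day 4 holds 7324 cells and the matrices of all 4 days hold 31330. The other 6510 day 4 cells that passed the same limits are called the other cells.

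Gastruloids are aggregates of mouse embryonic stem cells that form derivatives of the germ layers in culture. The study followed wild type Zx1 gastruloids at days 4, 5, 6 and 11, to ask whether they specify cardiopharyngeal mesoderm and, from it, cardiac and skeletal muscle. After aggregation all received a pulse of CHIR99021, an activator of the Wnt pathway, and basic FGF, VEGF and ascorbic acid were added from day 4. Each day is 1 droplet library of pooled gastruloids, so no test between days or between sets of cells can be made, and every interval below is a 95% interval that covers counting error only.

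*Twist1* encodes a basic helix-loop-helix (bHLH) factor of mesenchyme that pairs with E proteins and is known for its role in the epithelial to mesenchymal transition. *Hand2* encodes another bHLH factor, of the heart, branchial arch and limb mesenchyme, while *Prrx1* and *Prrx2* encode paired-related homeobox factors of limb, lateral plate and craniofacial mesenchyme. *Gata6* encodes a zinc finger factor of cardiogenic mesoderm and endoderm. *Mesp1* is a bHLH gene of mesoderm that has just left the primitive streak, and *Krt18* encodes a keratin of simple epithelia.

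The promoters of *Hand2* and *Prrx1* are shown because each holds TAATTA, the core letters that paired-related and other homeobox factors bind. Both come from RefSeq, build GRCm38.p6, and are written 5′ to 3′ on the strand of the gene, with motif letters in capitals. In *Hand2* the capitals mark CATCTG, an E-box of the kind bound by Twist1 with E proteins, at 246 to 241 bases before the RefSeq start, and TAATTA at 175 to 170 bases before it. In *Prrx1* they mark TAATTA at 173 to 168 bases before the start, and only the 190 bases outside the GENCODE gene are printed.
Hand2, chr8:57320733-57320982, plus strand: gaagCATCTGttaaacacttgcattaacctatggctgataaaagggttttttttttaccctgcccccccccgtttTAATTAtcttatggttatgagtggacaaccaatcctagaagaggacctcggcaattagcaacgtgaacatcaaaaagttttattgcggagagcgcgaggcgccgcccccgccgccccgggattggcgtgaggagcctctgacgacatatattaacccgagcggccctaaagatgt
Prrx1, chr1:163313711-163313900, minus strand: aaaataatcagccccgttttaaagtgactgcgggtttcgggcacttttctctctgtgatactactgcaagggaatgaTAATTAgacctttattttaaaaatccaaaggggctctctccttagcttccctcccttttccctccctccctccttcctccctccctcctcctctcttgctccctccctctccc

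Each motif was searched on both strands in the 250 bases before each start, and TAATTA is its own reverse complement. TAATTA stood in 4.84% of the 32851 promoters of the table, CATCTG or its reverse complement CAGATG in 14.4%, and CATATG in 3.46%. The windows of *Twist1* and *Prrx2* held none of these motifs. Of the 15 genes highest in the selected cells, described below, 14 had a promoter in the table; *Prrx1* and *Foxp1* held TAATTA, *Hoxb1* held CATCTG or CAGATG, and none held CATATG. These matches are descriptions of letters. In GENCODE vM21, *Twist1* (ENSMUSG00000035799) lies at chr12:33957671-33959829 on the plus strand, *Hand2* (ENSMUSG00000038193) at chr8:57320983-57324633 on the plus strand, *Prrx2* (ENSMUSG00000039476) at chr2:30834972-30881251 on the plus strand and *Prrx1* (ENSMUSG00000026586) at chr1:163245119-163313710 on the minus strand.

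The steps of the selection show how much each limit removed. *Twist1* at 3 or more UMIs was met by 2383 cells, and 1974 of these also met the limit on *Hand2* plus *Prrx2*. Of the 1974, *Mesp1* alone removed 739 cells, *Krt18* alone 314 and both together 229. More of the cells with the positive genes were therefore left out than kept, mainly through *Mesp1*.

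Depth hardly separated the selected cells from the rest. Their median was 25541.5 UMIs (quartiles 19725.5 and 36052) and 4813.5 genes, against 25288 UMIs and 4699 genes in the other cells. The median mitochondrial share was 2.53% against 2.28%, and the ribosomal protein gene share 33.1% against 34.6%. A simulated-doublet score among the highest 8% was found in 6.07% of the selected cells and 8.20% of the other cells. The 4 libraries hold 149169498 to 236714826 UMIs. Day 4 shares 13, 5 and 18 barcodes with days 5, 6 and 11, of which 2, 0 and 2 belong to selected cells.

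The values of the genes that chose the cells are given as a description. *Twist1* ran from 3 to 61 UMIs per cell with a median of 7. *Hand2* had a median of 2 UMIs (0 to 38) and *Prrx2* a median of 3 (0 to 25), with 93 and 61 cells at 0. In counts per 1000000 of the summed UMIs (CPM, here the unit and not cardiopharyngeal mesoderm), *Twist1* stood at 322 in the selected and 77.1 in the other cells, *Hand2* at 117 and 54.3, and *Prrx2* at 135 and 41.8. *Krt18* was at 0 in 408 selected cells (59.0%) and *Mesp1* in 357 (51.6%). These differences follow from the selection and support nothing.

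**Figure D1:**
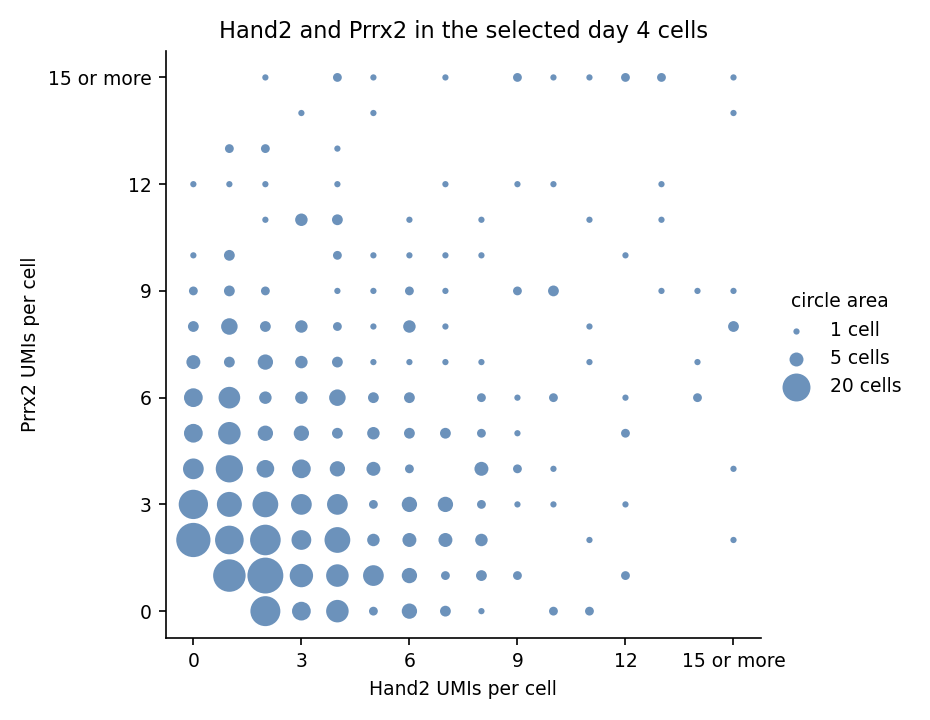
UMIs of *Hand2* (x axis) and *Prrx2* (y axis) per selected cell, with values of 15 or more placed at 15 and circle area giving the number of cells. The largest circle holds 33 cells with 2 *Hand2* and 1 *Prrx2* UMIs, 30 cells have 2 *Prrx2* UMIs and no *Hand2*, and the empty corner below 2 UMIs in all is set by the rule.

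Cells just inside and just outside each limit are given as a description. *Prrx1* stood at 45.9 CPM in the 103 selected cells with 3 *Twist1* UMIs and at 33.5 CPM in the 140 cells that met all other limits with 2. It was at 72.9 CPM with 2 UMIs of *Hand2* plus *Prrx2* (80 cells) and 58.4 CPM with 1 (69 cells). With *Krt18* at 4 UMIs (39 cells) it was at 69.9 CPM and at 5 UMIs (22 cells) at 48.4 CPM. With *Mesp1* at 2 UMIs (143 cells) it was at 84.8 CPM and at 3 UMIs (95 cells) at 63.6 CPM. *Prrx1* was lower outside the limit in all 4 cases, and above the 19.6 CPM of the other cells. The sets are small and no intervals are given for them, so these steps are not shown to exceed counting error.

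The 2 markers that the rule did not use were both higher in the selected cells taken as a whole. *Prrx1* stood at 93.7 CPM against 19.6, a ratio of 4.78 (4.53 to 5.05), with quartiles over single cells of 26.2 and 139 CPM around a median of 66.3 against a median of 0 in the other cells. *Gata6* stood at 109 CPM against 75.4, a ratio of 1.45 (1.39 to 1.52), with a median over cells of 75.6 CPM against 47.2. The single cell distributions of both genes overlapped between the sets. *Gata6* was not raised in every group of selected cells described below. It was at 167 CPM in those of cluster 4 and 120 in those with both *Hand2* and *Prrx2*. In those of cluster 5 (57.3 CPM) and with *Prrx2* alone (61.3; 51.5 to 72.5) it lay below the 75.4 CPM of the other cells. With *Hand2* alone it was at 70.0 CPM (57.8 to 84.0), whose interval holds that level. After each cell was thinned to 10000 UMIs, which 686 selected and 6387 other cells reached (6 and 123 were left out), *Prrx1* was found in 53.8% (49.98 to 57.57) of selected and 12.7% (11.9 to 13.6) of other cells. Unthinned, the shares were 78.2% and 24.5% at median depths of 25541.5 and 25288 UMIs. As a background, thinned epiblast-like cells (8 or more *Pou5f1* UMIs, 640 cells, median depth 36094.5 UMIs before thinning) held *Prrx1* in 2.81% and thinned endoderm-like cells (5 or more *Epcam* and 3 or more *Foxa2* plus *Sox17* UMIs, 466 of 468 cells, median depth 38674 UMIs) in 6.01%. *Gata6* was found in 54.4% of the thinned selected cells, 41.1% of the others, 12.03% of the epiblast-like and 57.3% of the endoderm-like cells, so its share did not separate the selected cells from endoderm.

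Across all genes, differences of 2-fold were few. Of 7239 genes with a mean CPM of 10 or more over the selected and other cells, 38 (0.525%) were at least 2 times higher in the selected cells and 90 (1.24%) at most 0.5 times as high, with a median ratio of 1.03. *Twist1*, *Hand2* and *Prrx2* are among the 38, and *Krt18* and *Mesp1* among the 90.

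The 15 highest genes with 50 CPM or more, the rule's own left out, were led by homeobox genes. After *Prrx1* came *Meis1*, encoding a homeobox cofactor of Hox proteins, at 54.5 CPM against 17.9, a ratio of 3.04 (2.84 to 3.25), and its relative *Meis2* was at 206 against 108 (1.91). *Hoxb1*, an anterior Hox gene, was at 128 against 66.1 CPM (1.93). *Hotairm1*, a noncoding RNA of the HoxA cluster, was at 68.2 against 29.6 CPM (2.31), and whether reads were counted by strand is not given in the sources used here.

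Growth and signalling genes filled much of the rest. *Mest*, an imprinted gene, was at 295 CPM against 99.5, a ratio of 2.97 (2.88 to 3.05), and *Igf2*, which encodes a growth factor, at 216 against 102 (2.12). *Grb10*, encoding an adaptor that dampens insulin and IGF receptor signalling, stood at 199 against 110 (1.81). *Id2*, which encodes an HLH protein that binds E proteins without binding DNA, was at 230 against 103 (2.24). *Tgfb2*, a TGFβ ligand gene, was at 81.6 against 37.8 (2.16). *Aldh1a2*, for the enzyme that makes retinoic acid, was at 85.9 against 44.8 (1.92, and 1.21 with no limit on *Krt18*), and *Crabp1*, for a retinoic acid binding protein, at 255 against 139 (1.83). *Cttnbp2* (2.29), *Foxp1* (1.83) and *Uaca* (1.80) completed the 15, of which 8 were at 2 or more.

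These genes were spread over many of the selected cells. The 5% of selected cells with the most UMIs of a gene held 15.7% of the *Meis2* UMIs, 20.1% for *Meis1*, 22.1% for *Prrx1* and 26.5% for *Aldh1a2*. In thinned cells *Meis1* was found in 39.6% of the selected and 13.4% of the other cells, *Mest* in 64.9% and 35.9%, *Id2* in 79.2% and 48.6%, and *Aldh1a2* in 44.9% and 24.3%. The epiblast-like and endoderm-like shares were 2.50% and 4.29% for *Meis1*, 18.3% and 18.0% for *Mest*, 41.6% and 44.6% for *Id2*, and 6.25% and 4.72% for *Aldh1a2*. For *Id2* the background shares came close to those of the other cells.

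**Figure D2:**
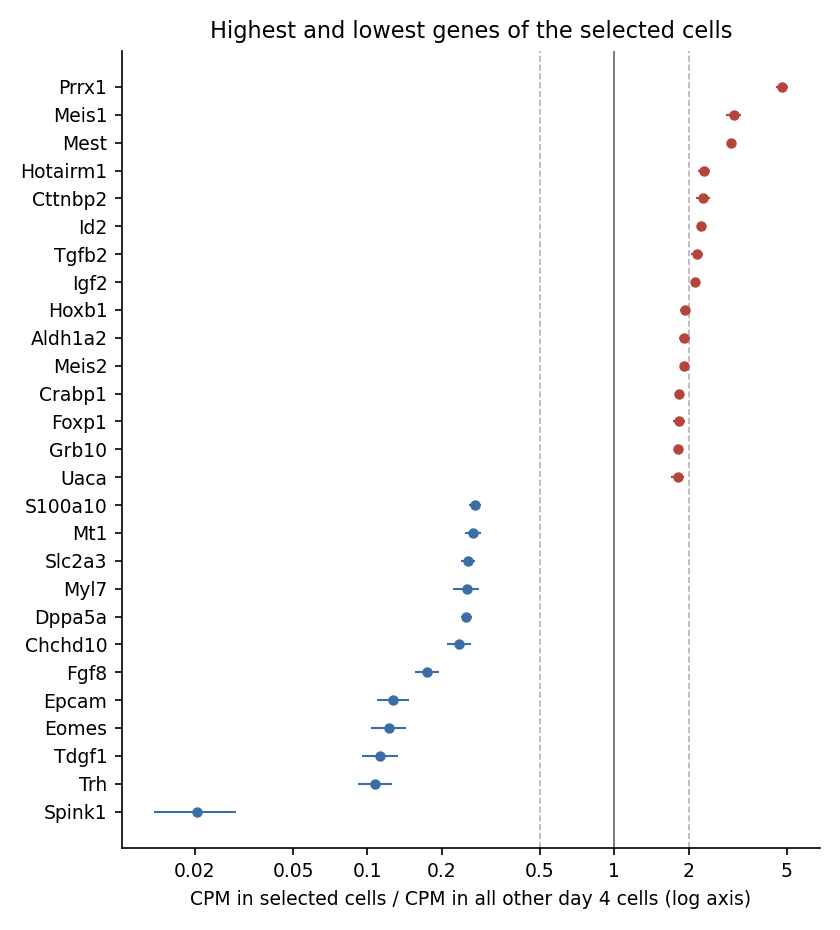
Ratio of CPM in the selected cells to CPM in all other day 4 cells (x axis, log scale) for the 15 highest and 12 lowest named genes, with 95% counting intervals as bars and dashed lines at 2 and 0.5. *Prrx1* lies farthest right at 4.78 and *Spink1* farthest left at 0.02.

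The 12 lowest genes differed in where else they were found. *Spink1*, a trypsin inhibitor gene of the endoderm, was at 1.41 CPM against 69.1 (0.02), and *Trh*, which encodes the precursor of thyrotropin releasing hormone, at 7.68 against 71.4 (0.11). *Epcam*, the epithelial adhesion molecule gene, was at 8.79 against 69.2 (0.13). *Tdgf1*, encoding a Nodal co-receptor, was at 7.24 against 64.2 (0.11), and *Dppa5a*, a gene of pluripotent cells, at 81.7 against 324 (0.25). *Eomes*, a T-box gene of the streak and early mesoderm, stood at 7.43 CPM against 60.8 (0.12), and *Fgf8* at 16.6 against 95.3 (0.17). *Myl7*, the atrial myosin light chain gene, was at 13.5 CPM against 53.6 (0.25). While *Spink1* (619 CPM) and *Epcam* (344 CPM) were high in the endoderm-like and *Dppa5a* (2037 CPM) in the epiblast-like cells, *Myl7* stood at 17.5 CPM in the epiblast-like and 18.3 CPM in the endoderm-like cells. *Chchd10* (0.24), *Slc2a3* (0.26), *Mt1* (0.27) and *S100a10* (0.27) were the other four.

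Part of this low side moved with the limit on *Mesp1*. With no limit on *Mesp1*, *Eomes* had a ratio of 0.86, *Myl7* 0.71, *S100a10* 0.55 and *Tdgf1* 0.51, so none of these stayed below 0.5. Part moved with the makeup of the other cells. When epiblast-like cells, endoderm-like cells and cells with 3 or more *T* UMIs were left out, 4997 other cells remained and *Dppa5a* turned to 1.23, while *Chchd10* was at 0.84, *Mt1* at 0.79, *Epcam* at 0.62, *Trh* at 0.54 and *Slc2a3* at 0.52. *Fgf8* moved to 0.34 and *Spink1* to 0.21. That set was chosen after the data were seen. *Prrx1* kept a ratio of 3.90 and *Meis1* of 2.44 in that comparison.

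The genes of the lists were read against the same shares of all tested genes. The limit on *Krt18* bears on the epithelial list, since *Krt8*, its partner keratin gene, was at 134 CPM in the cells that the *Krt18* or *Mesp1* limit left out. Epithelial genes were low in all 3 of 14 that were tested, namely *Epcam* (0.13), *Krt8* (42.4 against 146 CPM, 0.29) and *Cldn7*, for a tight junction claudin (1.07 against 21.7, 0.05). The summed CPM of the 14 epithelial genes per cell ran from 0 to 773 with a median of 25.4 in the selected cells and from 0 to 3912 with a median of 81.9 in the others, and none of the 14 was at 0 in all selected cells. *Cdh1*, the E-cadherin gene, was at 1.80 CPM against 15.3 and was not tested for its low level.

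Mesenchymal transition genes lay close to the other cells. None of 11 tested of 15 passed 2-fold in either direction, with a median ratio of 1.20. The intermediate filament gene *Vim* was at 478 against 399 CPM (1.20) and the fibronectin gene *Fn1* at 286 against 369 (0.77). The zinc finger repressor genes *Snai1* and *Snai2* went apart, *Snai2* at 31.2 against 16.3 CPM (1.92; 1.76 to 2.09) and *Snai1* at 21.0 against 36.2 CPM (0.58; 0.53 to 0.64). *Snai1* was at 32.0 CPM in the cells that the *Krt18* or *Mesp1* limit left out, so the selection bears on its level. The PDGF receptor genes *Pdgfra* and *Pdgfrb* had ratios of 1.48 and 1.78, and *Mmp2*, for a matrix protease, 1.66.

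Homeobox genes of limb and branchial mesenchyme had 3 of 9 tested genes past 2-fold, of 15 in the list, and a median ratio of 1.38. *Irx3* was at 44.7 CPM against 10.8, a ratio of 4.15 (3.84 to 4.48), and its neighbour *Irx5*, with 350 UMIs, at 17.005 against 4.567 (3.72); the third was *Meis1*. In thinned cells *Irx3* was found in 30.6% of the selected and 8.78% of the other cells, with 5.94% of epiblast-like and 1.502% of endoderm-like cells. *Msx1* was at 217 against 180 CPM (1.21) and *Msx2* at 74.3 against 83.8 (0.89).

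Hox genes had a list median of 1.93 over 9 tested of 39, with 3 past 2-fold, which was the highest of the lists apart from the 5 marker genes that include the rule's own (3.24). These were *Hoxd1* (20.4 against 7.93 CPM, 2.57), *Hoxd9* (28.7 against 12.7, 2.26) and *Hoxa5* (13.9 against 6.60, 2.11). All 9 tested Hox genes were above a ratio of 1, the lowest being *Hoxb9* at 1.42. Of those under the level for testing, the posterior genes *Hoxc8* (2.48 against 6.42 CPM), *Hoxc9* (2.09 against 3.85) and *Hoxa9* (1.80 against 3.67) were lower in the selected cells, while *Hoxc5* (1.26 against 0.663) and *Hoxd3* (3.55 against 1.83) were higher. *Hoxb13* and *Hoxd12* had no UMI in the selected cells, which allows a level of up to 0.146 CPM (3 counts) and a share of up to 0.434% of cells with a UMI, as for the other genes below with no UMI.

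The list of lateral plate and cardiac progenitor genes was mixed, with a median ratio of 0.97 over 11 tested of 20. *Osr1*, a zinc finger gene of lateral and intermediate mesoderm, was at 45.7 CPM against 14.4 (3.16; 2.94 to 3.41), and *Wnt2*, a ligand gene of splanchnic mesoderm, at 29.2 against 12.8 (2.29). *Myl7* was the tested gene of the list below 0.5. The cardiac factor genes *Hand1* (240 against 247 CPM, 0.97), *Gata4* (25.8 against 29.99, 0.86), *Foxf1* (47.6 against 51.5, 0.92) and *Tbx3* (91.3 against 100.2, 0.91) lay near those of the other cells, and *Isl1* was at 27.0 against 20.3 (1.33). *Tbx5*, *Nkx2-5* and *Tnnt2* stood at 4.81, 0.389 and 0.0972 CPM and were not tested.

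Pharyngeal and cranial mesoderm genes were mostly scarce. Of 17, 3 were tested and none passed 2-fold, among them *Foxc1* (15.1 against 11.0 CPM, 1.37) and *Fgf10* (28.1 against 24.5, 1.15). *Alx1*, a homeobox gene of head mesenchyme, was at 10.5 against 2.70 CPM (3.91; 3.32 to 4.58) and *Tcf21*, a bHLH gene of branchiomeric muscle progenitors, at 3.84 against 1.08 (3.54; 2.71 to 4.60), both under the level for testing. *Tbx1* was at 0.583 against 0.527 CPM, and *Msc* had no UMI in the selected cells.

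Other mesoderm lists showed little. Of 15 presomitic and somitic genes 2 were tested, *Aldh1a2* at 1.92 and the Notch ligand gene *Dll3* at 0.45. *Lhx1* was the tested intermediate mesoderm gene of 5 (97.4 against 84.3 CPM, 1.16), and the kidney and mesothelial factor gene *Wt1* was at 2.09 against 0.532 CPM, untested. Of 7 tested allantois and extraembryonic mesoderm genes of 15, with a median ratio of 0.97, *Igf2* was past 2-fold and *Ahnak* was at 16.7 against 30.4 CPM (0.55).

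Streak and epiblast genes were mostly low against all other cells. The limit on *Mesp1* bears on the streak list. In the 1282 cells that the *Krt18* or *Mesp1* limit left out, *Eomes* was at 48.9 CPM, *Mixl1* at 16.9 and *Wnt3* at 11.7. These levels were above those of the selected cells, while *T*, at 10.9 CPM there, was near its level in them. The part of the selection in the low levels of the whole list was not tested. All 8 tested of 12 primitive streak and nascent mesoderm genes were at 0.5 or less, with a median ratio of 0.22, among them *T* (9.77 against 41.7 CPM, 0.23), *Mixl1* (3.50 against 22.8, 0.15) and *Wnt3* (3.74 against 18.2, 0.21). Of 8 tested of 13 pluripotent and epiblast genes 7 were, with a median of 0.29, *Pou5f1* being at 19.6 against 71.7 CPM (0.27) and *Sox2* at 11.0 against 25.7 (0.43). *Dnmt3b* was the exception at 0.65. The summed CPM per selected cell ran from 0 to 1031.5 (median 34.9) for the streak list, with *Cer1* at 0 in all of them, and from 0 to 6190.9 (median 85.3) for the pluripotent list, against medians of 174.9 and 176.9 in the other cells. All 3 tested of 10 endoderm genes were low, *Sox17* at 1.12 against 19.3 CPM (0.06) with *Spink1* and *Trh* above, and the summed list had a median of 0 and a highest value of 560.6 CPM per selected cell, with *Cldn8* and *Krt7* at 0.

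Markers of further cell types were mostly too low to be tested. Of 16 endothelium and blood genes 2 were tested, *Kdr* (49.3 against 53.8 CPM, 0.92) and *Etv2* (31.7 against 17.3, 1.83). Their summed CPM per selected cell ran from 0 to 3190 with a median of 42.8, against 47.3 in the other cells, and *Gata1* and *Icam2* were at 0. Among the untested genes of that list, *Tal1* (6.71 against 1.20 CPM, 5.57; 4.49 to 6.88) and *Lmo2* (14.7 against 5.12, 2.87; 2.51 to 3.26), both blood and endothelial regulators, were higher. Of 10 neural crest genes *Sox9* alone was tested (9.72 against 11.8, 0.82), and none of 10 neural ectoderm genes reached the level for testing, their sum being at 16.1 against 30.5 CPM (0.53; 0.47 to 0.59). *Sox10* stood at 0.0486 CPM and *Sox1* and *Tfap2b* had no UMI in the selected cells.

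**Figure D3:**
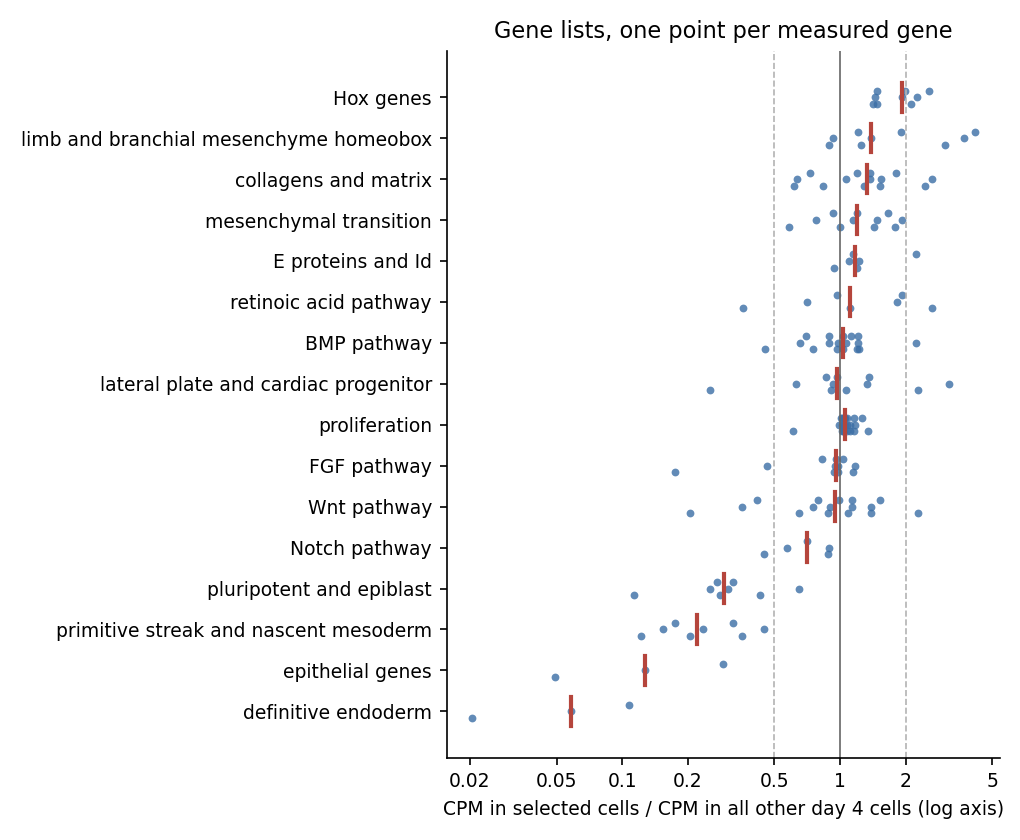
Each point is a tested gene of a list, placed by its ratio of CPM in the selected cells to CPM in all other day 4 cells (x axis, log scale), with the list median as a red bar and dashed lines at 2 and 0.5. The list of marker genes is not shown, and of the lists plotted the medians run from 1.93 for Hox genes to 0.06 for definitive endoderm, and 22 proliferation genes sit together around 1.06.

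Among signalling genes, retinoic acid pathway genes went both ways. Of 15 genes 7 were tested, with a median of 1.11. *Rdh10*, for the retinol dehydrogenase that feeds *Aldh1a2*, was at 24.4 against 9.25 CPM (2.64; 2.39 to 2.91), and *Cyp26a1*, for the enzyme that degrades retinoic acid, at 16.7 against 46.5 (0.36; 0.32 to 0.40). The selection bears on *Cyp26a1*, which was at 38.1 CPM in the cells that the *Krt18* or *Mesp1* limit left out. Its low level was shared with the *Hand1* and *Krt18* cells described below (17.8 CPM). *Aldh1a2*, at 1.92, stayed under 2-fold, and *Aldh1a3*, a related gene, was at 0.389 against 0.498 CPM. The receptor gene *Rarb* was at 7.24 against 2.86 CPM and the retinol uptake gene *Stra6* at 5.98 against 1.89, both untested, while *Rara* was at 16.2 against 16.7 (0.97).

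BMP pathway genes centred on 1.03 over 17 tested of 22. *Id2* was the gene past 2-fold, with *Id1* at 1.22 and *Id3* at 1.20, and *Fst*, for the activin and BMP antagonist follistatin, was at 17.4 against 38.5 CPM (0.45). The ligand gene *Bmp4* was at 57.0 against 58.6 (0.97) and *Smad1* at 45.3 against 69.2 (0.65). Of the E proteins, which pair with Twist1, *Tcf3* had a ratio of 1.10, *Tcf12* 1.15 and *Tcf4* 0.94, and *Id2* was the gene past 2-fold of 6 tested of 7 E protein and Id genes (median 1.17).

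Wnt pathway genes had a median of 0.95 over 16 tested of 23. *Wnt2* was higher, while *Wnt3*, the target *Sp5* (10.9 against 30.9 CPM, 0.35) and *Rspo3*, for an R-spondin (45.2 against 109, 0.41), were lower. The nuclear effector gene *Lef1* was at 114 against 82.1 CPM (1.39) and the target *Axin2* at 27.5 against 31.2 (0.88). FGF pathway genes had a median of 0.96 over 11 tested of 17, with the ligand genes *Fgf8* and *Fgf3* (15.1 against 32.5, 0.46) low and the receptor gene *Fgfr1* at 67.1 against 69.8 (0.96).

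Hedgehog pathway genes had a median of 1.04 over 4 tested of 12. *Gli3* was at 56.2 against 36.0 CPM (1.56) and *Smo* at 50.6 against 43.1 (1.17). *Ptch1* (24.4 against 36.3 CPM) and *Gas1* (38.7 against 43.1) were lower. Notch pathway genes had a median of 0.71 over 5 tested of 15, with *Dll3* low. Of 30 collagen and matrix genes 14 were tested (median 1.33), and *Col9a1* (14.7 against 5.55 CPM, 2.64) and *Col26a1* (14.4 against 5.90, 2.44) passed 2-fold. The fibrillar collagen genes *Col1a1* and *Col1a2* stood at 0.826 and 0.534 CPM.

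Cycling and stress genes did not set the selected cells apart. None of the 22 proliferation genes, all tested, passed 2-fold, with a median ratio of 1.06; *Top2a* was at 413 against 384 CPM (1.08) and *Cenpf* at 319 against 321 (0.99). The cell cycle inhibitor gene *Cdkn1a* was at 39.0 against 63.9 (0.61). Of 10 stress and dissociation genes 6 were tested and none passed 2-fold (median 1.19), with *Fos* at 1.51.

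Several genes differed with the *Twist1* count of the selected cells, which the rule used, and are given as a description. The cells were split at 3 to 5 (265 cells), 6 to 10 (213) and 11 or more (214) *Twist1* UMIs, with median depths of 22836, 23398 and 32656 UMIs. *Prrx1* stood at 59.8 (54.1 to 65.9), 82.9 (75.8 to 90.6) and 131 (123 to 139) CPM, and *Snai2* at 19.8, 29.99 and 41.9 CPM. *Gata6* stood at 81.8, 107 and 135 CPM, *Meis1* at 41.7, 49.8 and 68.8 CPM, and *Eomes* at 12.8, 6.37 and 3.67 CPM. *Hand1* (240, 261 and 223 CPM) and *Osr1* (51.3, 41.2 and 44.3 CPM) had no such order, and *Snai1* (18.9, 21.3 and 22.6 CPM) had overlapping intervals. Markers of other cells moved with the bands, *Pou5f1* at 26.1, 28.5 and 7.34 CPM and *Epcam* at 11.8, 12.9 and 3.16 CPM. The band of most *Twist1* UMIs is also the deepest, and the part of depth or of those markers in this order was not tested.

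The selected cells fell mainly into a pair of clusters. Day 4 cells were clustered with the rule's genes, *Prrx1* and *Gata6* left out, which gave 14 clusters, of which 12 held selected cells. Clusters 4 and 5 held 268 selected cells each (38.7%; 35.1 to 42.5), together 77.5% (74.2 to 80.5), and the selected cells made up 32.4% of the 828 cells of cluster 4 and 33.0% of the 813 of cluster 5. Cluster 3 held 55 (7.95%) and the endoderm cluster 7, led by *Spink1*, *Sox17* and *Foxa2*, held none of 520 cells. Neither cluster 4 nor cluster 5 had 3 raised markers of a cell type list, so they are known here by number.

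The genes left out of the clustering differed between them. In the selected cells of cluster 4 *Gata6* stood at 167 CPM and in those of cluster 5 at 57.3 CPM, a ratio of 2.91 (2.60 to 3.26). *Hand2* stood at 168.5 and 82.3 CPM, a ratio of 2.05 (1.86 to 2.26), and *Krt18*, though under 5 UMIs in every selected cell, at 42.5 and 10.9 CPM. *Prrx1* went the other way, at 86.7 CPM in cluster 4 and 131 in cluster 5, a ratio of 0.66 (0.60 to 0.73). *Prrx2* (152 and 144 CPM, 1.06; 0.98 to 1.15) and *Mesp1* (22.8 and 24.0 CPM) were not told apart at this depth, and *Twist1* was at 381 and 331 CPM. The rule therefore joined cells with more *Gata6* and *Hand2* to cells with more *Prrx1*.

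**Figure D4:**
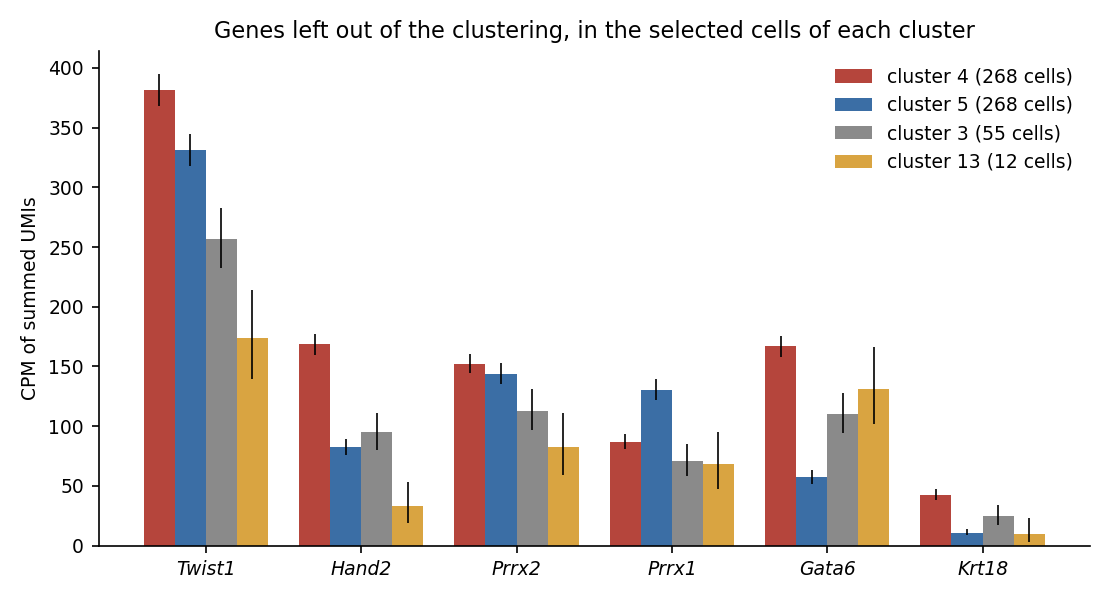
CPM of 6 genes left out of the clustering (y axis) in the selected cells of clusters 4, 5, 3 and 13, with 95% counting intervals as lines. Cluster 4 stands above cluster 5 for *Gata6* (167 and 57.3 CPM) and *Hand2* (168.5 and 82.3 CPM) and below it for *Prrx1* (86.7 and 131 CPM).

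Within a cluster the selected cells differed from their neighbours in part of the 15 highest genes. The interval of the ratio lay above 1 for 14 of the 15 in cluster 4, 8 in cluster 5 and 13 in cluster 3. The 15 genes were chosen as highest in these same selected cells, which favours ratios above 1. The share of all genes with such an interval is not given here, so the counts are a description. *Prrx1* in selected against unselected cells was at 86.7 against 59.4 CPM in cluster 4 (1.46; 1.33 to 1.60), 131 against 64.8 in cluster 5 (2.01; 1.84 to 2.21) and 70.8 against 19.8 in cluster 3 (3.57; 2.88 to 4.39). *Mest* had ratios of 1.23, 1.96 and 2.20 and *Meis1* of 1.25, 1.33 and 2.81 in clusters 4, 5 and 3. *Aldh1a2* had 1.68 in cluster 4 and 0.86 (0.79 to 0.94) in cluster 5, and *Hoxb1* 1.27 and 0.87, so these genes were lower in the selected cells of cluster 5 than in its other cells. *Crabp1*, *Foxp1*, *Hotairm1*, *Meis2* and *Tgfb2* had ratios of 0.97 to 1.07 there, with intervals that held 1, as did *Uaca* in cluster 4 (1.01).

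Small groups carried much of the RNA of some genes of other cell types. Clusters 8, 10 and 11, led by genes such as *Pou5f1*, *Dppa3* and *Fgf17*, held 33 selected cells, in which *Dppa5a* stood at 1061 CPM against 15.9 in the remaining 659, *Pou5f1* at 192 against 7.98 and *Utf1* at 96.6 against 0.363. These 33 cells held 81.7% of the *Dppa5a* UMIs of all selected cells and still had *Twist1* at 203 CPM and *Prrx2* at 111 CPM. Their median depth was 41383 UMIs against 25475 in the remaining cells, and 20 of the 33 (60.6%; 42.1 to 77.1) had a doublet score among the highest 8%, against 22 of the 659 (3.34%). Without them *Prrx1* was at 95.3 CPM.

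Cluster 13, with 8 raised endothelium and blood markers and led by *Tal1*, *Rhoj* and *Fli1*, is endothelium and blood-like, and 12 of its 34 cells (35.3%; 19.7 to 53.5) were selected. In these 12 cells *Etv2*, for an ETS factor of the first blood and endothelial progenitors, stood at 481 CPM against 20.2 in the other selected cells, *Lmo2* at 311 against 7.12, *Tal1* at 213 against 1.44 and *Kdr* at 301 against 42.9. They held 79.0% of the *Tal1* UMIs of the selected cells but 37.7% of those of *Etv2* and 15.2% of those of *Kdr*. Without them *Etv2* was thus at 20.2 CPM, near the 17.3 of the other day 4 cells. *Twist1* was at 174 CPM and *Hand2* at 33.3 CPM in the 12. Their median depth was 41055.5 UMIs, and none of the 12 had a high doublet score (upper bound 26.5%).

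The alternative in the rule, *Hand2* or *Prrx2*, gave unequal groups. Both genes had at least 1 UMI in 538 cells, *Hand2* alone was found in 61 and *Prrx2* alone in 93, with median depths of 27032, 24350 and 21981 UMIs, so a gene counted as absent may have been missed. *Twist1* stood at 336, 239 and 276 CPM and *Prrx1* at 97.8, 59.0 and 88.6 CPM in these groups, in that order. *Gata6* was at 120 CPM with both genes, 70.0 with *Hand2* alone and 61.3 with *Prrx2* alone.

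Over 7234 genes with a mean of 10 CPM or more, 97 (1.34%) were at least 2 times higher and 110 (1.52%) at most 0.5 times as high in the *Hand2* cells as in the *Prrx2* cells. The 5 highest of 50 CPM or more were *Eomes* (50.5 against 1.79 CPM, 28.2; 10.6 to 106), *Asb4* (131 against 26.4, 4.98), *Krt8* (59.7 against 16.1, 3.70), the BMP ligand gene *Bmp4* (99.8 against 27.3, 3.66; 2.71 to 4.99) and the myelin and membrane protein gene *Pmp22* (139 against 41.2, 3.37). The 5 lowest were the metallothionein genes *Mt2* (3.04 against 52.8, 0.06) and *Mt1* (13.4 against 94.4, 0.14), *Ptgds* (6.09 against 81.5, 0.07), for a prostaglandin synthase, *Ptn* (7.91 against 66.2, 0.12), for the growth factor pleiotrophin, and *Dppa5a* (39.6 against 217, 0.18). *Eomes* was at 3.95 CPM in cells with both genes, so its high level was that of the *Hand2* cells.

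Lists of genes differed along with them. Of 10 tested lateral plate and cardiac progenitor genes 3 were at least 2 times higher in the *Hand2* cells and none 0.5 times or less (median 1.83), the 3 being *Myl7* (45.7 against 10.7 CPM), *Wnt2* (28.6 against 10.3) and *Foxf1* (68.8 against 32.2). *Hand1* was at 268 against 146 CPM (1.83; 1.58 to 2.12). Of 13 tested Hox genes 5 were at most 0.5 times as high and none 2 times higher (median 0.73), the lowest being *Hoxd4* (1.83 against 20.1 CPM) and *Hoxb9* (4.87 against 36.7). *Id1* (195 against 421 CPM, 0.46) and *Id2* (132 against 280, 0.47) were lower in the *Hand2* cells, and *Twist1* was at 239 against 276 (0.87). Pluripotent genes were at most 0.5 times as high in 4 of 6 tested and endothelium and blood genes in 3 of 4, beside 1.52% of all tested genes. The *Prrx2* cells include some of clusters 8, 10, 11 and 13, counted below, whose part in these counts was not tested.

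Their clusters differed too. Of the 93 *Prrx2* cells 50 (53.8%; 43.1 to 64.2) lay in cluster 5 and 7 (7.53%) in cluster 4, with 13 in clusters 8, 10 and 11 and 6 in cluster 13. Of the 61 *Hand2* cells 18 (29.5%) lay in cluster 5, 19 (31.1%; 19.9 to 44.3) in cluster 4 and 9 in cluster 1, which is led by *Eomes*, and none in cluster 13. Restricted to clusters 4 and 5 (37 *Hand2* and 57 *Prrx2* cells), a comparison chosen after the data were seen, *Eomes* was at 2 and 1 UMIs, *Dppa5a* at 10.4 against 8.98 CPM (1.16; 0.43 to 3.08) and *Prrx1* at 102 against 109 (0.94; 0.71 to 1.24), so these differences were not seen there. *Mt2* (0.57; 0.05 to 3.47), *Mt1* (0.44; 0.13 to 1.27) and *Ptgds* (0.28; 0.03 to 1.33) had intervals that held 1, and *Id1* (0.56; 0.48 to 0.65) and *Id2* (0.72; 0.60 to 0.87) were above 0.5. *Asb4* (67.1 against 11.4 CPM, 5.88; 3.24 to 11.4) and *Bmp4* (77.5 against 26.1, 2.97; 1.92 to 4.68) stayed higher in the *Hand2* cells, and *Hoxb9* (9.26 against 33.5, 0.28; 0.11 to 0.60) lower. *Hand1* was at 199 against 168 CPM (1.18; 0.96 to 1.46), whose interval holds 1.

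Sets of like day 4 cells place the selected cells. The 1282 cells that met the *Twist1* and *Hand2* or *Prrx2* limits but exceeded that of *Krt18* or *Mesp1* were deeper, with a median of 44497 UMIs, and had *Prrx1* at 39.2 CPM against 93.7, *Mest* at 152 against 295, *Hand1* at 327 against 240 and *Eomes* at 48.9 against 7.43. *Snai2* was at 32.2 CPM in them and 31.2 in the selected cells, and *Gata6* at 105 and 109. The 138 cells that met every limit but that on *Hand2* plus *Prrx2* (median 20632 UMIs) had *Prrx1* at 49.1 CPM, *Osr1* at 38.6 and *Gata6* at 38.8.

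Sets limited to under 3 *Twist1* UMIs, a limit that bears on their *Prrx1*, were also compared. The 1770 *Mesp1* cells (3 or more *Mesp1*, under 5 *Krt18* and under 3 *Twist1* UMIs) had *Prrx1* at 11.0 CPM, *Meis1* at 11.6, *Snai2* at 2.60 and *Eomes* at 117. The 632 *Hand1* and *Krt18* cells (3 or more and 5 or more UMIs, under 3 of *Twist1*) had *Prrx1* at 7.91 CPM, *Aldh1a2* at 7.07, *Hand1* at 482 and *Snai2* at 36.5. *Aldh1a2* was at 69.3 CPM in the *Mesp1* cells, near the 85.9 of the selected cells. High *Prrx1* with low *Eomes* was seen in the selected cells, while high *Snai2* was shared with the *Hand1* and *Krt18* cells. The limit on *Mesp1* bears on *Eomes* here and in the 1282 cells above. Without that limit the ratio of *Eomes* to its level in the other cells was 0.86, so its low level follows in part from the selection.

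**Figure D5:**
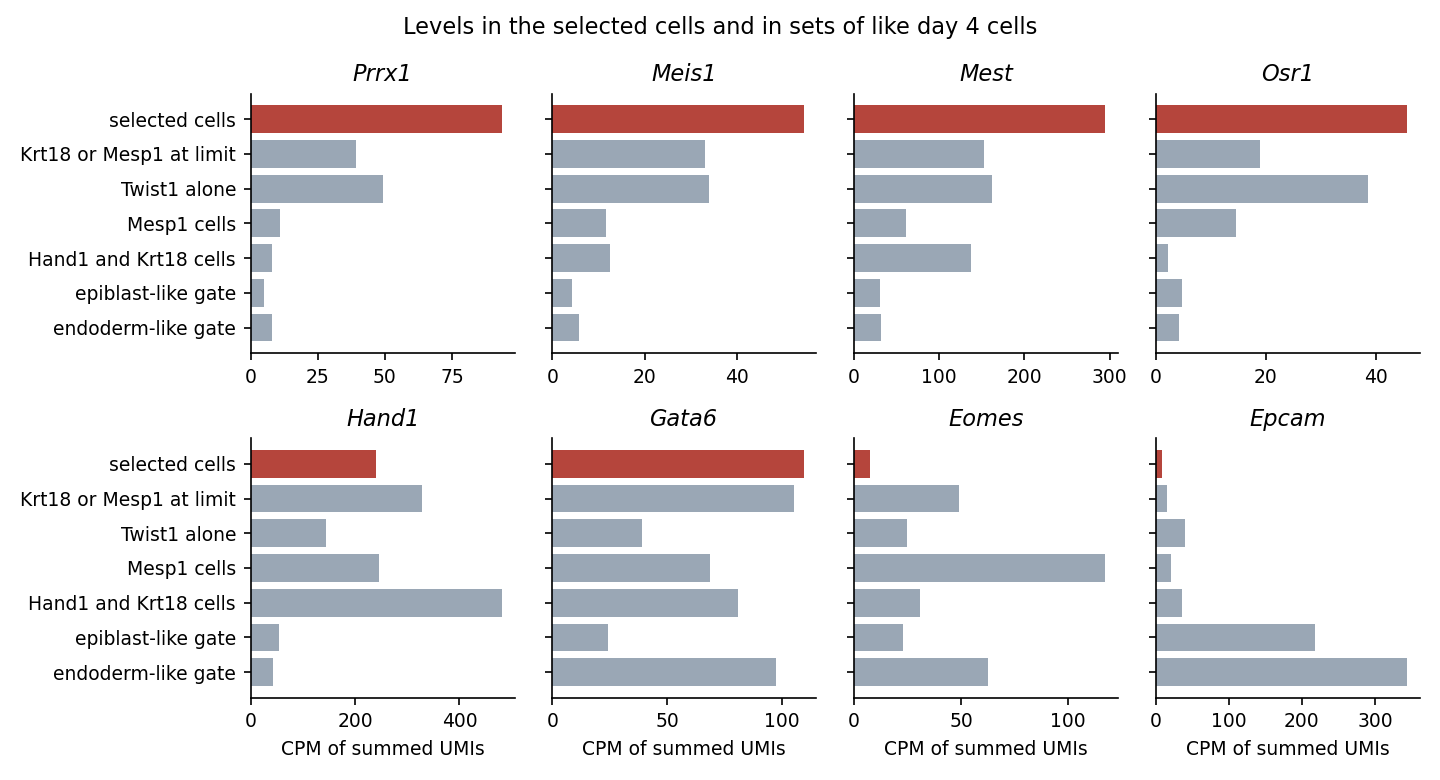
CPM of 8 genes (x axes, each from 0) in the selected cells (red) and 6 sets of like day 4 cells (grey), the set named Krt18 or Mesp1 at limit being the 1282 cells that the 2 upper limits left out. *Prrx1* is at 93.7 CPM in the selected cells and at most 49.1 in the other sets, while *Hand1* is highest, at 482, in the *Hand1* and *Krt18* cells.

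The same rule was applied to the later libraries, whose depths differ. Beside the 692 cells of day 4 it took 1137 on day 5 (15.3%), 2685 on day 6 (45.9%) and 1082 on day 11 (12.4%). These come from median depths over all cells of 25335, 28400.5, 25581 and 12082 UMIs on days 4, 5, 6 and 11. After thinning to 10000 UMIs the shares were 5.99%, 5.82%, 23.5% and 6.98%, so the higher share at day 5 did not hold at equal depth while that of day 6 did. Of the cells, 7073 of 7202, 7023 of 7408, 5643 of 5850 and 5689 of 8730 reached that depth, so day 11 lost the most. The limit on *Mesp1* lost its effect: it was met by 56.2% of cells at day 4 and 96.4%, 99.9% and 100% later. The other limits shifted too, that on *Krt18* being met by 75.5%, 53.8%, 92.5% and 98.9% of cells on days 4, 5, 6 and 11. That on *Twist1* was met by 33.1%, 36.6%, 51.3% and 21.8%, and that on *Hand2* plus *Prrx2* by 53.9%, 56.1%, 79.3% and 41.7%.

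The genes of the day 4 profile were followed in the cells that the rule took later. Against the other cells of its day, *Prrx1* had ratios of 4.78, 3.64, 2.72 and 3.36 at days 4, 5, 6 and 11. Of the 15 highest day 4 genes, all 15 were above a ratio of 1 at day 5, 12 at day 6 and 12 at day 11, with medians of 2.12, 1.45, 1.26 and 1.16 over the 4 days. Of all genes with a mean of 10 CPM or more, 66.5%, 59.1% and 56.6% were above 1 on days 5, 6 and 11. At 2 or more were 2, 1 and 1 of the 15 genes on those days, beside 0.340%, 0.688% and 0.479% of all such genes. The 12 lowest had medians of 0.205, 0.191, 0.243 and 0.718 over the 4 days, beside 1.03, 1.04, 1.02 and 1.02 for all such genes. *Meis1* had ratios of 3.04, 2.44, 1.41 and 1.21, and *Mest*, at 2.97 on day 4, 1.27, 1.11 and 1.25.

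Levels in these cells shifted between libraries, largely along with those of the other cells. *Aldh1a2* stood at 85.9, 1.94, 9.37 and 12.5 CPM and *Hoxb1* at 128, 24.3, 6.83 and 0.246 CPM at days 4, 5, 6 and 11. *Igf2* stood at 216, 292, 612 and 756 CPM, and *Myl7*, at 13.5 and 6.46 CPM on days 4 and 5, at 990 and 4547 CPM on days 6 and 11. The other cells had *Myl7* at 1108 and 4610 CPM on days 6 and 11. In the other cells *Aldh1a2* stood at 44.8, 1.16, 11.02 and 11.3 CPM, *Hoxb1* at 66.1, 17.1, 16.6 and 0.371 CPM and *Igf2* at 102, 211, 434 and 691 CPM on these days. *Prrx1* was lowest at day 5 (34.9 CPM) and highest at day 11 (264 CPM). The other cells had *Prrx1* at 19.6, 9.61, 23.9 and 78.5 CPM at days 4, 5, 6 and 11, also lowest at day 5 and highest at day 11. With 1 library per day, the day and the library cannot be told apart.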

How the data were processed

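Single-cell RNA was measured in 4 libraries of Zx1 gastruloids, 1 per day. The authors deposited matrices of raw UMI counts per gene and cell, already reduced to called cells. The submitters' processing notes name Cell Ranger 3.1.0 and mm10, and the matrix header of day 11 names software 6.0.1 where the earlier ones name 3.1.0. Whether reads were counted by strand is not given in the sources used here. The 4 libraries hold 227398362, 236714826, 182150138 and 149169498 UMIs.

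Cells were selected by the limits given in the text, on raw counts. Doublets were kept. The members, the gene lists and the genes named were chosen with earlier results of these data known. Counts were summed over cells and divided by their total to give CPM. A gene is called tested, meaning set against the fold limits without a p-value, when the mean CPM of the sets compared was 10 or more. Where symbols were duplicated, the feature with the most UMIs was used. Intervals are at 95%: Clopper-Pearson for shares, exact Poisson for CPM and conditional binomial for ratios. UMIs of 1 library are not replicates, so no statistical test was made.

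Genes named were the 5 of the rule, *Prrx1* and *Gata6*, the 15 highest and 12 lowest ratios at 50 CPM or more, from each list those past 2-fold or else the 2 of highest CPM, and the 5 highest and 5 lowest between the *Hand2* and *Prrx2* cells. Other list members were named after their values were seen. The list genes number 378 in 26 lists.

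Clustering took the study's gene and component numbers: counts scaled to 10000 UMIs per cell and logged, 2000 variable genes, 30 components, 20 neighbours and Leiden at resolution 1 (igraph 0.11.9, leidenalg 0.10.2). Doublet scores followed Scrublet's method with 2 simulated doublets per cell. The fold computation was checked on simulated data. Python 3.11.15, numpy 2.4.6, scipy 1.17.1 and pandas 2.3.3 were used. Alternatives varied each limit, depth, normalization, gene filter, fold and clustering. The study's own differential expression and cell annotation were not used here.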

Additional observations from a re-analysis of the deposited data

How the results depend on the processing

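Without a limit on *Mesp1* the rule took 1431 cells and 24 genes were at least 2 times higher, and with *Mesp1* at 0 it took 357 cells. With a mean CPM of 50 or more, 8 genes were higher and 14 lower, and over any gene with a UMI 1451 and 6300, since fewer or more genes were then tested. A fold of 1.5 gave 95 and 196 genes and a fold of 3 gave 11 and 41. With epiblast-like, endoderm-like and *T* cells left out of the other cells, an alternative chosen after seeing the data, 45 genes were lower. The share of selected cells in the pair of clusters with most of them was 50.9% at resolution 1.5 and 72.4% with the left-out genes kept. On thinned cells the rule took 5.99%, 5.82%, 23.5% and 6.98% at days 4, 5, 6 and 11. The ratio of *Krt18* turned to 1.18 without its limit and that of *Mesp1* to 1.01 without its own, by construction, and *Dppa5a* turned to 1.23 with the added comparison above. Over 16 settings *Prrx1* ran from 3.90 to 5.44, *Meis1* from 2.44 to 3.48 and *Mest* from 2.12 to 3.37. The rest of the 15 highest genes that were at 2 or more fell under 2 at their lowest. *Id2* fell to 1.61 with no limit on *Mesp1* and *Hotairm1* to 1.82 with no limit on *Krt18*. With epiblast-like, endoderm-like and *T* cells left out, *Igf2* fell to 1.69, *Tgfb2* to 1.82 and *Cttnbp2* to 1.83. Selected cells of clusters 4 and 5 alone (536 cells, also chosen after seeing the data) gave 51 higher and 120 lower genes. No paired analysis was possible because each day holds 1 library. Depth limits genes under 10 CPM, for which a selected cell rarely held a UMI.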

Other observations

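Some of the genes with the highest ratios lay under 50 CPM and in none of the lists, and were picked after their values were seen. *Ndnf*, for a secreted neurotrophic protein, was at 19.1 CPM in the selected cells against 4.07 in the other day 4 cells (4.69; 4.15 to 5.30). *Lix1* was at 31.9 against 9.33 CPM (3.42), *Tshz2* and *Tshz1*, which encode teashirt zinc finger factors, at 25.4 against 8.25 (3.07) and 44.5 against 17.8 (2.50), and *Col14a1* at 16.1 against 4.59 (3.51).

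Imprinted genes were looked at because *Mest*, *Igf2* and *Grb10* stood among the highest genes, so the list was chosen after values were seen and supports nothing. Of 20 genes 15 were tested, 3 of them (*Mest*, *Dlk1* and *Igf2*) at least 2 times higher and none 0.5 times or less, with a median ratio of 1.34 against 1.03 over all tested genes. *Dlk1* was at 32.6 against 13.9 CPM (2.35) and *Meg3*, of the same cluster, at 416 against 313 (1.33). *Cdkn1c* had a ratio of 1.34, *Peg10* 0.86 and *Phlda2* 0.72. *H19*, which shares a domain with *Igf2*, was at 3.60 against 0.764 CPM (4.70; 3.52 to 6.24) and untested, with UMIs in 1.59% of the selected cells.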
